A study of Rattus norvegicus with 28 samples.

Results

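Primary microglia from newborn rat cortex that received nothing but a vehicle were sequenced in 2 sets, 3 libraries with buffer and 3 libraries with water (H2O). They were chosen by their titles and make up 6 of the 28 RNA-seq libraries of the study, which fall into 8 groups. The buffer is the vehicle of the recombinant HERV-W envelope protein (HERV-W ENV, 1 µg/ml), the envelope of a human endogenous retrovirus, and the water is the vehicle of bacterial lipopolysaccharide (LPS, 100 ng/ml). Neither set received the stimulus itself, so the comparison shows how far resting cultures of the 2 sets lay apart and is not a treatment effect. All 6 libraries share the same preparation. Cortices of Wistar rats at postnatal day 1 were grown as mixed cultures for 10 days in medium with 10% fetal calf serum, the flasks were shaken at 180 rpm, the detached cells were collected after 2 h and again after 24 h, and microglia were enriched on magnetic beads against CD11b/c. The vehicle was added 1 day after isolation. The labels do not say whether replicates of a set came from separate litters or culture rounds, so a p-value here reflects library-to-library spread, part of which may be technical. The vehicle, the set and anything else that differed between the sets cannot be told apart.

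Microglia are the resident macrophages of the brain, and in such flasks they grow on a layer of astrocytes together with oligodendrocyte progenitors. Shaking loosens microglia first and progenitors with longer or harder shaking, which is why bead selection is often added. Oligodendrocyte progenitors carry the platelet-derived growth factor receptor Pdgfra and the transcription factors Olig1, Olig2 and Sox10, and as they mature they pass through a stage marked by the receptor Gpr17 and then switch on myelin genes such as Mag. Astrocytes are marked by the intermediate filament gene Gfap. RNA from a small number of such cells can be read in a bulk microglial library because microglia express these genes little or not at all.

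The libraries were deep, and depth differed with the set. Assigned counts came to 26513999, 28559201 and 29687277 for buffer replicates 1 to 3, against 39636372, 41299906 and 42724111 for H2O replicates 1 to 3, so every buffer library was shallower than every H2O library. Levels below are assigned counts scaled to a library total of 1000000 (CPM), given in the order of replicates 1, 2 and 3. A count of 0 allows a level of up to 0.101 to 0.113 CPM with buffer and 0.0702 to 0.0757 CPM with H2O, where 3 counts are taken as the limit and only counting error is covered. H2O replicate 3 stood apart from its set. On the first principal component, which held 77.1% of the variance over the 12900 genes tested, the buffer libraries lay at -45.7, -65.1 and -65.1, and the H2O libraries at 101.2, 96.9 and -22.2. H2O replicate 3 correlated with the buffer libraries at 0.959 to 0.973 across genes in log2 CPM and with its own set at 0.934 and 0.935, while H2O replicates 1 and 2 correlated at 0.988 with each other. Buffer replicate 3 stood apart from its set to a smaller degree, with a correlation of 0.961 to buffer replicates 1 and 2, which reached 0.99 with each other. These correlations are across genes and are descriptions.

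**Figure D1:**
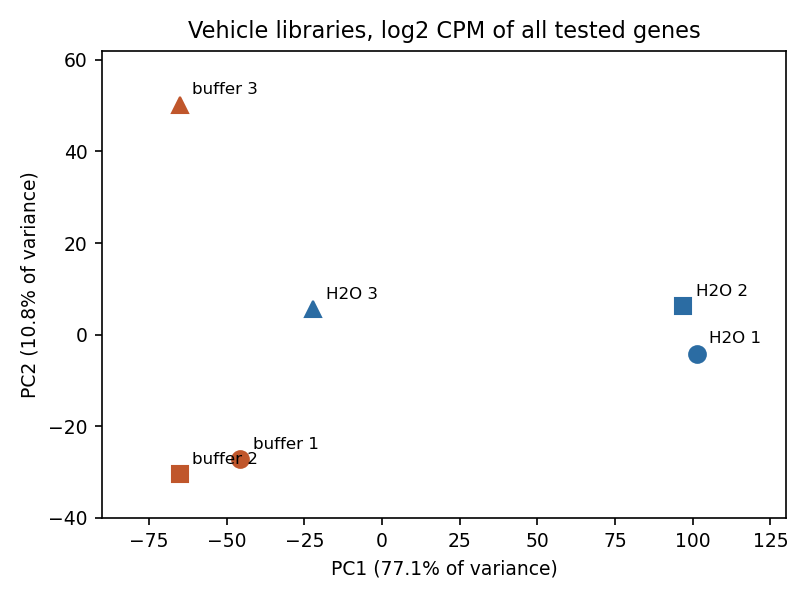
Principal components of the 6 microglial vehicle libraries, with the share of variance on each axis (77.1% and 10.8%) and one point per library, buffer and H2O in separate symbols. H2O replicate 3 lies at -22.2 on the first axis, close to the buffer libraries at -45.7 to -65.1 and far from H2O replicates 1 and 2 at 101.2 and 96.9, and buffer replicate 3 lies at 50.2 on the second axis.

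All 6 libraries were microglial by their defining markers. The 20 listed microglia and macrophage genes were all measured and tested, and their summed level was 16730, 15420 and 19940 CPM in the buffer libraries, against 16200, 17050 and 18570 CPM in the H2O libraries, with overlapping groups. Csf1r, the receptor that microglia need to survive, stood at 2190, 1750 and 2210 CPM with buffer and at 2530, 2970 and 2770 CPM with H2O. Trem2, a lipid-sensing phagocytic receptor, stood at 716, 712 and 833 CPM with buffer and 615, 497 and 849 CPM with H2O. The log2 change of Trem2 was 0.09 ± 0.20 (SE, buffer over H2O) with an adjusted p of 0.81. The median log2 change of the list was -0.12, beside -0.002 over all genes tested. Endothelial markers summed to 77.6, 76.9 and 86.4 CPM with buffer and 106, 130 and 93.6 CPM with H2O, and fibroblast and mural markers to 21.8, 25 and 16.2 CPM with buffer and 9.79, 18.3 and 21.3 CPM with H2O. Of the ependymal and choroid plexus list, 1 of 11 genes had enough counts to be tested and the list summed to at most 3.03 CPM with buffer and 4.09 CPM with H2O. Lymphocyte markers, 7 of which had no count in any vehicle library, summed to 38.6, 25.6 and 41.6 CPM with buffer and 20.3, 75.2 and 15.6 CPM with H2O. Granulocyte and monocyte markers, 5 of which had no count, summed to 118, 76.0 and 126 CPM with buffer and 288, 207 and 97.6 CPM with H2O, with Mmp9 at up to 181 CPM of that sum with H2O.

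With all 6 libraries, 0 of 12900 genes passed an adjusted p of 0.05 (0%; edgeR quasi-likelihood test, Benjamini-Hochberg adjustment). At an unadjusted p under 0.05 there were 1119 genes higher with buffer (8.67%) and 827 lower (6.41%). For 2946 genes every buffer library lay above every H2O library (22.8%), and for 725 every one lay below (5.62%). DESeq2 called 682 of 12826 genes on the same libraries (5.32%), 359 higher (2.80%) and 323 lower (2.52%) with buffer. A fit that also held the HERV-W ENV and LPS microglia and took the spread from all 4 groups called 28 of 13270 genes (0.211%), 15 higher with buffer (0.113%) and 13 lower (0.0980%). Leaving out H2O replicate 3 brought 1650 of 12975 genes past the threshold (12.7%), 1355 higher with buffer (10.4%) and 295 lower (2.27%), whereas leaving out any other single library left 0. Without that library the groups lay apart for 7024 genes in either direction (54.1%). Groups lie apart more easily with fewer libraries, whichever is left out, so this share is not directly comparable with those of all 6. The biological coefficient of variation was 25.9% among the buffer libraries and 43.3% among the H2O libraries, against 17.1% between H2O replicates 1 and 2. Results without H2O replicate 3 rest on 2 H2O libraries and on leaving out a library that was seen to stand apart, and they are given beside the values of all 6. Among markers of other cell types, that comparison called Cd8b of 3 tested lymphocyte genes and Cspg4 of 9 fibroblast and mural genes higher with buffer, Mmp9 of 4 granulocyte genes lower, and 0 of 8 endothelial genes. Of the 20 microglial markers it called Tmem119 higher and Itgam lower.

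Gfap and Col11a2 were low in all 3 H2O libraries, replicate 3 included. Gfap, the astrocyte filament gene, stood at 18.6, 22.7 and 39.6 CPM in the buffer libraries, against 0.151, 0.726 and 1.08 CPM in the H2O libraries (27 ± 11.2 and 0.651 ± 0.467 CPM, SD, n = 3 each). Col11a2, a chain of the fibrillar collagen XI, stood at 20.8, 29.2 and 20.4 CPM in the buffer libraries, against 2.40, 2.78 and 3.30 CPM in the H2O libraries (23.5 ± 4.95 and 2.83 ± 0.453 CPM, SD, n = 3 each). The groups did not overlap for either gene. Col11a2 had the smallest p of all 12900 genes, with a log2 change of 2.93 ± 0.20 (SE) and an adjusted p of 0.0629 with all 6 libraries. It was the single gene called when no filter on low counts was applied (0.00583% of 17158, adjusted p 0.0357), and its adjusted p was 0.00119 without H2O replicate 3. For Gfap the log2 change was 5.26 ± 0.70 and the adjusted p 0.229 with all 6 libraries, and 5.77 ± 0.71 and 0.00455 without H2O replicate 3. The bases before each start site are printed because these genes had low levels in all 3 H2O libraries. They come from RefSeq (GRCr8), run 5′ to 3′ on the gene's own strand and lie at chr10:88361662-88361911 (minus strand) for Gfap and chr20:4817649-4817898 (minus strand) for Col11a2. Capitals mark matches on either strand to 4 motifs. The motif ACAAAG is a core bound by SOX factors, and so is the motif spelled ACAATG. The motif CAGCTG is an E-box bound by helix-loop-helix factors, as is the motif spelled CAGATG.
Gfap: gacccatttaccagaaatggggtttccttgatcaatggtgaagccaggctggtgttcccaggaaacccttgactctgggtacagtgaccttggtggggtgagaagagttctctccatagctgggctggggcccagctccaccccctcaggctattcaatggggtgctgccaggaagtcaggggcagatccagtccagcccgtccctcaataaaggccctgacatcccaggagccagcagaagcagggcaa
Col11a2: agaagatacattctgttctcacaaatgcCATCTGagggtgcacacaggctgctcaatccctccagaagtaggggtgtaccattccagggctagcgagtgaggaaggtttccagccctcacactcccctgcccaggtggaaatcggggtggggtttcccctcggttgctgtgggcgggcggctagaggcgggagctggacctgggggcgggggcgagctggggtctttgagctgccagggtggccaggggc
Of the 33469 promoters in the same table, cut to the same 250 bases, 43.4% held at least 1 of the 4 motifs and 14.0% held CAGATG. Gfap had none in this window and Col11a2 had 1, a CAGATG on the opposite strand at position -222. The motifs were picked after the values were seen, and a match describes letters only.

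The stimulated microglia gave a further reading of both genes in each set. Gfap stood at 17.4, 42.0 and 118 CPM in the HERV-W ENV libraries, which belong to the buffer set, and at 0.0253, 0.0522 and 2.31 CPM in the LPS libraries, which belong to the H2O set. Col11a2 stood at 2.92, 5.65 and 6.37 CPM with HERV-W ENV and at 0.912, 0.470 and 1.08 CPM with LPS. For both genes all 3 HERV-W ENV libraries lay above all 3 LPS libraries, as buffer lay above H2O. These libraries differ in the stimulus as well as in the set. For Col11a2 all 3 HERV-W ENV libraries lay below all 3 buffer libraries, which stood at 20.4 to 29.2 CPM. In the study's astrocyte cultures, Gfap had a median of 5640 CPM with buffer (5130 to 6430, n = 4) and 4370 CPM with H2O (2930 to 6390, n = 4). Col11a2 had a median of 29 CPM with buffer and 24.1 CPM with H2O there. The microglial buffer libraries thus held a Gfap level far below that of astrocyte cultures but a Col11a2 level near it. The 2 cell types share no scaling beyond the plain library total.

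**Figure D2:**
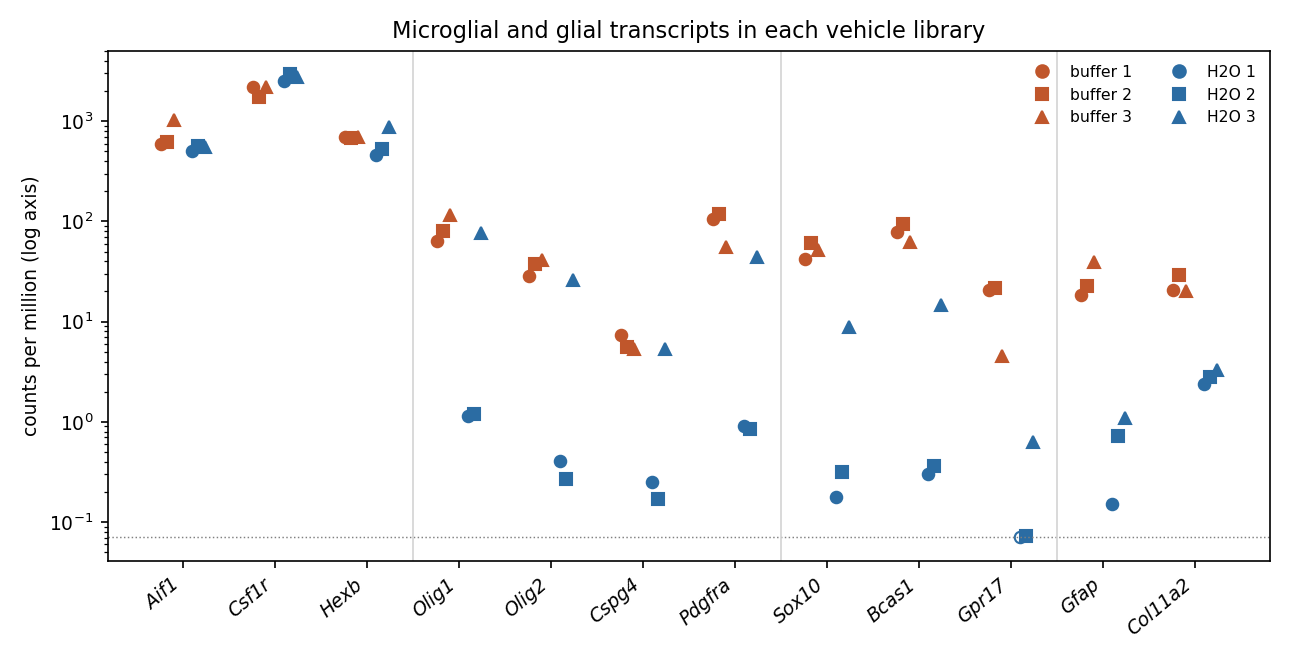
Levels of 12 named genes in each library (CPM, log axis), buffer left of H2O, 1 point per library, with open symbols for values below the 0.0702 CPM line that marks the limit of a count of 0 in the deepest library. Gfap, Col11a2 and Gpr17 are low in all 3 H2O libraries, whereas Olig1, Olig2 and Cspg4 are low in H2O replicates 1 and 2 only.

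Most tested genes of the oligodendrocyte lineage were higher with buffer than in H2O replicates 1 and 2, where many were at or under 1.19 CPM. Of the 20 listed genes 17 were tested. With all 6 libraries, 0 were called (0%), 10 had an unadjusted p under 0.05, all higher with buffer (8.67% of all genes), and 15 lay higher in every buffer library than in any H2O library (22.8% of all genes). Without H2O replicate 3, 15 were called higher with buffer (10.4% of all genes) and 0 lower. The median log2 change was 2.56 with all 6 libraries and 6.57 without H2O replicate 3, beside medians over all genes of -0.002 and 0.008. In bulk RNA, fewer cells of a type and less RNA per cell cannot be told apart.

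Among genes of progenitors, Olig1, Olig2, Pdgfra and Cspg4 split the H2O set, to differing degrees. The level in H2O replicate 3 was 87.4% of the buffer mean for Olig1, 72.3% for Olig2 and 47.6% for Pdgfra. For Sox10, which progenitors also carry and which is described further below, it was 17.2%. Olig2, a transcription factor that specifies the lineage, stood at 28.7, 38.0 and 41.5 CPM in the buffer libraries, against 0.404, 0.266 and 26.1 CPM in the H2O libraries. Olig1, its close relative, stood at 63.8, 80.4 and 117 CPM with buffer, against 1.14, 1.19 and 76.1 CPM with H2O. H2O replicates 1 and 2 lay far below the other 4 libraries for both genes, while replicate 3 lay near the buffer libraries. Pdgfra, the growth factor receptor of progenitors, followed this order with 106, 118 and 56.0 CPM with buffer and 0.908, 0.847 and 44.5 CPM with H2O. Cspg4, which codes for the NG2 proteoglycan of progenitors and pericytes, stood at 7.28, 5.53 and 5.32 CPM with buffer and 0.252, 0.169 and 5.29 CPM with H2O. With all 6 libraries the adjusted p was 0.572 for Olig1, 0.518 for Olig2, 0.426 for Pdgfra and 0.511 for Cspg4. Leaving out H2O replicate 3 gave 6.63e-04 for Olig1, 5.38e-04 for Olig2, 8.52e-04 for Pdgfra and 0.00121 for Cspg4.

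For Sox10 and for genes of differentiating and myelinating oligodendrocytes, the level in H2O replicate 3 also differed from gene to gene. Sox10, a transcription factor of the whole lineage, stood at 42.5, 60.7 and 51.9 CPM with buffer, against 0.177, 0.315 and 8.92 CPM with H2O. Bcas1, which marks cells that begin to myelinate, stood at 77.8, 93.3 and 62.4 CPM with buffer, against 0.303, 0.363 and 14.6 CPM with H2O. For both, H2O replicate 3 lay between the other H2O libraries and the buffer libraries, at 17.2% of the buffer mean for Sox10 and 18.8% for Bcas1. Gpr17, the receptor of committed progenitors, stood at 20.5, 21.5 and 4.58 CPM with buffer, against 0, 0.0726 and 0.632 CPM with H2O. H2O replicate 3 held 4.07% of the buffer mean of Gpr17, above its 2 companions. Mag, a myelin adhesion protein, stood at 3.02, 0.630 and 1.08 CPM with buffer and had no count in any H2O library, which allows up to 0.0702 to 0.0757 CPM. Fa2h, an enzyme of myelin lipids, stood at 2.15, 1.93 and 1.04 CPM with buffer and 0, 0.0242 and 0.0936 CPM with H2O. With all 6 libraries the adjusted p was 0.301 for Sox10, 0.307 for Bcas1, 0.259 for Gpr17 and 0.25 for Mag and Fa2h. Leaving out that library gave 5.38e-04 for Sox10 and Bcas1, 0.00794 for Gpr17, 0.0321 for Mag and 0.00523 for Fa2h.

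Myrf, Cnp and Mbp, abundant members of the list, were present in H2O replicates 1 and 2 as well. Mbp, a main myelin protein gene, stood at 39.8, 22.2 and 19.5 CPM with buffer and 13.2, 13.3 and 16.5 CPM with H2O, groups that did not overlap, with an adjusted p of 0.304 with all 6 libraries and 0.153 without H2O replicate 3. Myrf, a transcription factor of myelin genes, stood at 124, 115 and 152 CPM with buffer and 163, 210 and 102 CPM with H2O, with overlapping groups and an adjusted p of 0.491. In the LPS libraries Myrf had 21150, 25978 and 29809 counts where Olig1 had 1, 5 and 515, so Myrf did not follow Olig1. Which cells gave the Myrf counts was not tested. Cnp, an enzyme of myelin that other cells also express, stood at 109, 108 and 121 CPM with buffer and 53.8, 64.6 and 78.1 CPM with H2O, with a log2 change of 0.67 ± 0.14 and an adjusted p of 0.258. The summed level of the list was 673, 705 and 668 CPM with buffer and 234, 292 and 381 CPM with H2O, a difference of means of 380 CPM (682 ± 19.8 and 302 ± 74.0 CPM, SD, n = 3 each; exact permutation test, two-sided p = 0.1, the smallest that 3 against 3 allows). Without Myrf and Cnp the sum was 440, 481 and 395 CPM with buffer and 17.3, 17.7 and 201 CPM with H2O. Mbp made up most of that sum in H2O replicates 1 and 2. H2O replicate 3 lay between H2O replicates 1 and 2 and the buffer libraries.

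Astrocyte markers differed among themselves. Of 15 listed genes, Gfap included, 12 were tested, 6 had an unadjusted p under 0.05 with all 6 libraries, all higher with buffer (8.67% of all genes), and 9 were called higher without H2O replicate 3 (10.4% of all genes). The median log2 change of the list was 2.17 with all 6 libraries. Aldoc, the brain form of aldolase, stood at 10.4, 18.5 and 22.1 CPM with buffer and 1.16, 1.31 and 4.87 CPM with H2O, and Ttyh1, a membrane protein of glia and neural progenitors, at 8.56, 11.6 and 10.6 CPM with buffer and 0.252, 0.266 and 2.18 CPM with H2O. Atp1b2, a sodium pump subunit of glia, stood at 17.9, 21.5 and 35.1 CPM with buffer and 1.34, 0.920 and 9.03 CPM with H2O. The groups did not overlap for these 3 genes, and H2O replicate 3 was the highest H2O library for each. Slc1a3, a glutamate transporter of astrocytes that cultured microglia and progenitors can express too, stood at 198, 197 and 225 CPM with buffer and 60.2, 71.9 and 271 CPM with H2O. H2O replicate 3 was the highest of all 6 libraries for Slc1a3, whose adjusted p was 0.623 with all 6 libraries and 0.00262 without that library. Sox9, a transcription factor of astrocytes and progenitors, stood at 0.339, 0.490 and 0.640 CPM with buffer and 0.0505, 0.0726 and 1.59 CPM with H2O, and the gap junction gene Gja1 at 0.981, 1.58 and 0.640 CPM with buffer and 0.404, 1.19 and 1.4 CPM with H2O, both with overlapping groups. Aqp4 and Aldh1l1, which define mature astrocytes, stayed at or below 0.595 CPM in every vehicle library.

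The summed astrocyte list stood at 267, 290 and 340 CPM with buffer and 64.4, 77.4 and 297 CPM with H2O (299 ± 37.5 and 146 ± 131 CPM, SD, n = 3 each; exact permutation test, two-sided p = 0.3). Without Slc1a3, its most abundant member, the sum was 68.1, 93.6 and 115 CPM with buffer and 4.19, 5.42 and 25.4 CPM with H2O, groups that do not overlap (exact permutation test, two-sided p = 0.1). Slc1a3 alone gave 271 of the 297 CPM in H2O replicate 3.

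Neuronal genes too were lowest in H2O replicates 1 and 2 as a sum. Of 16 listed genes 10 were tested, 4 had an unadjusted p under 0.05 with all 6 libraries (8.67% of all genes) and 9 were called without H2O replicate 3 (10.4% of all genes), all higher with buffer. The list summed to 51.9, 73.9 and 40.2 CPM with buffer, against 1.64, 1.57 and 22.0 CPM with H2O. Dcx, a microtubule protein of young neurons, stood at 17.2, 24.5 and 14.5 CPM with buffer, against 0.227, 0.291 and 5.22 CPM with H2O. Map2, a microtubule protein of dendrites, stood at 22.1, 30.1 and 8.19 CPM with buffer, against 0.328, 0.412 and 9.03 CPM with H2O. Map2 in H2O replicate 3 thus lay above buffer replicate 3. Map2 and Dcx were the most abundant tested members. Elavl3 had 115, 194 and 162 counts with buffer, but Snap25 had 9, 14 and 18 and Stmn2 11, 6 and 8. Which cells gave the transcripts of this list was not tested. Of the Schwann cell and neural crest list, 7 of 12 genes were tested, 3 were called higher without H2O replicate 3 (10.4% of all genes), and these were Sox10, Col11a2 and Pmel. Pmel, known as a pigment cell gene, stood at 4.87, 6.48 and 5.42 CPM with buffer, against 0.454, 0.678 and 1.10 CPM with H2O, so it was low in all 3 H2O libraries like Col11a2.

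**Figure D3:**
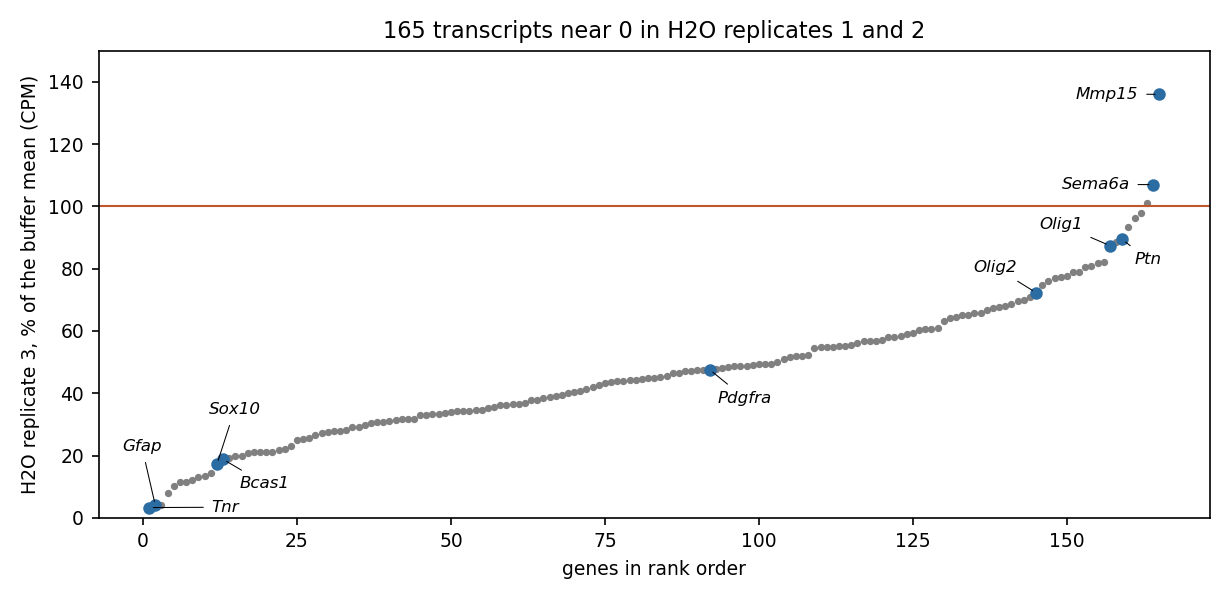
Level in H2O replicate 3 as a percentage of the buffer mean for the 165 genes that were called higher without that library by a log2 change of at least 4 and averaged at least 10 CPM with buffer, in rank order. The points run from 3.3% for Tnr to 136% for Mmp15 with a median of 44.9%, and Tnr and Gfap sit at the low end while Olig1 (87.4%) sits near the high end.

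For genes far higher with buffer than in H2O replicates 1 and 2, the level in H2O replicate 3, as a share of that with buffer, differed widely from gene to gene. Among 165 genes that were called higher without H2O replicate 3, with a log2 change of at least 4 and a buffer mean of at least 10 CPM, its level was a median of 44.9% of the buffer mean (interquartile range 31.6% to 59.0%). A total of 4 genes were under 10%, among them Tnr with 3.3%, Gfap with 3.99% and Gpr17 with 4.07%, and Col11a1, another chain of collagen XI, was at 10.2%. At the other end Mmp15, a membrane-bound metalloproteinase, was at 136%, Sema6a, a guidance molecule, at 107% and Nap1l5 at 101%. Olig2 was at 72.3% and Olig1 at 87.4%, and Cspg4, which averaged under 10 CPM and is not among the 165, at 87.5%, whereas Sox10 was at 17.2%, Bcas1 at 18.8% and Ugt8, an enzyme of myelin galactolipids, at 22.2%. Tnr, an extracellular matrix protein made by oligodendrocytes, also varied within the buffer set, at 34.9, 49.2 and 3.20 CPM with buffer and 0.0505, 0.315 and 0.960 CPM with H2O.

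Over all 1355 genes called higher without H2O replicate 3, that library was placed between the mean of H2O replicates 1 and 2 (position 0) and the buffer mean (position 1) in log2 CPM. The median position was 0.77. It lay above 0.75 for 718 genes (53%), between 0.25 and 0.75 for 584 (43.1%) and below 0.25 for 53 (3.91%). On a log2 scale a high position can go with a CPM well below buffer. Bcas1 lay at 0.686 with 18.8% of the buffer mean, and Mmd2 at 0.802 with 34.3%. For the 295 genes called lower the median position was 0.69, with 133 genes above 0.75 (45.1%), 114 between (38.6%) and 48 below 0.25 (16.3%). The values of H2O replicate 3 did not enter the fit that chose these genes. That library was left out because it was seen to stand apart, so the positions are a description and not independent support.

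**Figure D4:**
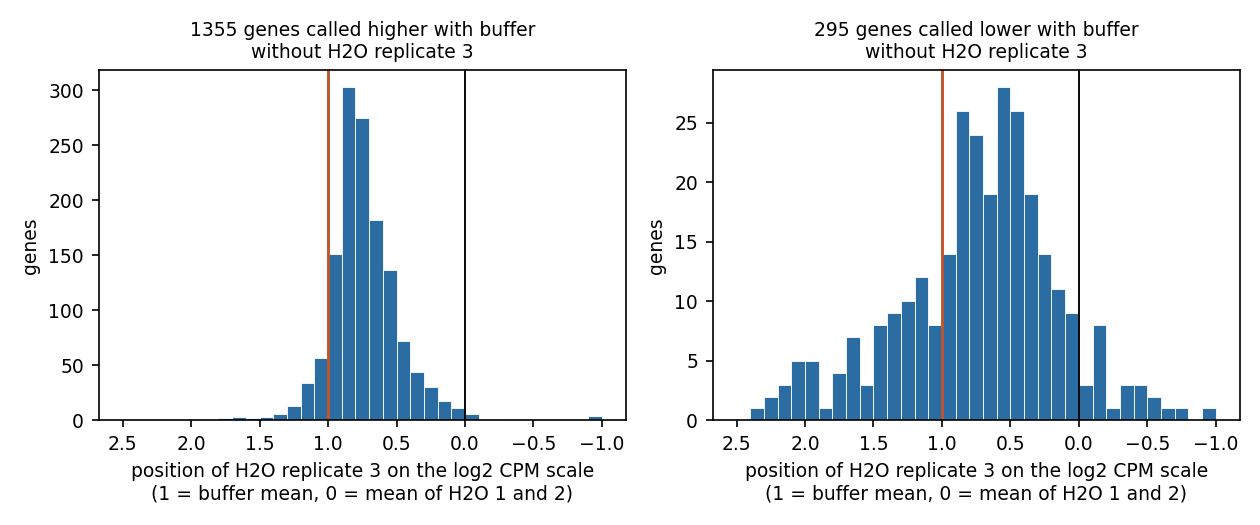
Position of H2O replicate 3 for the 1355 genes higher and the 295 genes lower with buffer that were called without it, on a scale where 1 is the buffer mean and 0 the mean of H2O replicates 1 and 2 (log2 CPM, values outside -1 to 2.5 drawn at the edge). The medians are 0.77 and 0.69, so on this log2 scale most genes lie nearer to the buffer libraries than to the other H2O libraries.

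The genes in which H2O replicate 3 lay farthest above its 2 companions included Olig1, Olig2 and Sox8, transcription factors of the oligodendrocyte lineage. The 10 largest positive differences, 5.79 to 6.67 in log2 CPM, were those of Dlk1, Mmp15, Gucy1b1, Olig2, Spon1, Sox8, Ptn, Olig1, Nap1l5 and Sparcl1. Ptn, the growth factor pleiotrophin, stood at 65.7, 104 and 153 CPM with buffer and 1.64, 1.31 and 96.3 CPM with H2O. Sparcl1, a secreted matrix protein of glia, stood at 68.7, 147 and 159 CPM with buffer and 1.72, 1.86 and 102 CPM with H2O. Mmp15 stood at 41.8, 44.1 and 40.6 CPM with buffer and 0.706, 0.847 and 57.6 CPM with H2O. For these 3 genes H2O replicate 3 was within or above the range of the buffer libraries. Among the 10 largest negative differences were Lpar3, a lysophosphatidic acid receptor, with -6.46, Mmp9, a secreted gelatinase, with -5.48, and Cd5l, a macrophage secreted protein, with -2.76. Mmp9 stood at 22.0, 11.2 and 6.97 CPM with buffer and 181, 112 and 3.14 CPM with H2O, so H2O replicate 3 was the lowest of the 6 libraries.

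Replicate 3 of the LPS libraries, which share the water set, departed from its companions in many of the same genes. Of 1530 genes that were at least 2-fold higher in H2O replicate 3 than in the mean of H2O replicates 1 and 2, 1037 were also at least 2-fold higher in LPS replicate 3 than in the mean of LPS replicates 1 and 2 (67.8%, beside 12% of all genes tested). Of 486 genes at least 2-fold lower, 185 were also lower there (38.1%, beside 9.76%), and 149 were at least 2-fold lower in buffer replicate 3 than in its companions (30.7%, beside 8.84%). For the 1530 higher genes, 125 were also at least 2-fold higher in buffer replicate 3 (8.17%, beside 2.43%), while 154 were at least 2-fold lower there. Olig2 stood at 0.0253, 0.0522 and 6.30 CPM in the LPS libraries and Ptn at 0.177, 0.261 and 24.5 CPM. In the HERV-W ENV libraries, which share the buffer set, Olig2 stood at 7.65, 21.3 and 18.3 CPM, each above all 3 LPS libraries. Of the 1530 genes, 223 were also at least 2-fold higher in HERV-W ENV replicate 3 than in its companions (14.6%, beside 3.05%), and of the 486 lower genes 44 were also lower there (9.05%, beside 1.53%). Of the 12900 genes tested, 15.6% lay at least 2-fold from the mean of their companions in H2O replicate 3, 11.3% in buffer replicate 3 and 21.7% in LPS replicate 3, while the other 9 microglial libraries gave 2.86% to 13.4%.

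A few microglial genes also had H2O replicate 3 nearer to the buffer libraries than to its companions. Tmem119, a surface marker of resting microglia, stood at 25.1, 46.6 and 43.5 CPM with buffer and 5.73, 5.42 and 35.9 CPM with H2O. Gpr84, a receptor for medium-chain fatty acids, stood at 23.8, 30 and 40.6 CPM with buffer and 4.14, 4.43 and 28.1 CPM with H2O. Cx3cr1, the fractalkine receptor, stood at 129, 163 and 323 CPM with buffer and 28.0, 70.9 and 253 CPM with H2O. For each of the 3 genes H2O replicate 3 lay within the buffer range and the other H2O libraries lay below it. Without H2O replicate 3 the adjusted p was 0.00379 for Tmem119, 0.00233 for Gpr84 and 0.0824 for Cx3cr1. P2ry12, a purine receptor of resting microglia, stood at 61.2, 46.4 and 64.6 CPM with buffer and 58.0, 66.9 and 89.0 CPM with H2O, with overlapping groups and an adjusted p of 0.359. Of the 21 tested genes of the homeostatic list, 0 had an unadjusted p under 0.05 in favour of buffer, 5 were lower with buffer at that level (6.41% of all genes), and 2 were called higher without H2O replicate 3 (Tmem119 and Gpr84), a share near the 10.4% of all genes. The levels of the residual glial genes moved with Tmem119 and Gpr84 over these libraries, and their part in it was not tested.

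For inflammatory genes, as for all genes, nothing was called with all 6 libraries (0%). Il1b, a cytokine of activated microglia, stood at 178, 235 and 471 CPM with buffer and 177, 240 and 104 CPM with H2O, beside 1310, 1400 and 5450 CPM in the LPS libraries. Tnf stood at 75.5, 84.4 and 79.3 CPM with buffer and 60.4, 45.3 and 63.1 CPM with H2O (adjusted p 0.305), beside 70.5, 156 and 554 CPM in the LPS libraries. Ccl2, a monocyte chemokine, stood at 41, 38.2 and 24.3 CPM with buffer and 75.7, 30.9 and 26.7 CPM with H2O (adjusted p 0.573). Nos2, the inducible nitric oxide synthase, stood at 0.189, 0.210 and 0 CPM with buffer and 1.24, 0.823 and 0.726 CPM with H2O, beside 1400, 384 and 2840 CPM in the LPS libraries. The groups did not overlap for Tnf and Nos2. Under LPS, Nos2 was higher than in any vehicle library in all 3 replicates, whereas Tnf in LPS replicate 1 lay below every buffer library. Of the NF-kB targets 1 of 27 tested genes had an unadjusted p under 0.05 and of the TLR4 complex and its adaptors 0 of 15 (15.1% of all genes). Cd14, the LPS co-receptor, stood at 464, 491 and 395 CPM with buffer and 428, 245 and 352 CPM with H2O, and Tlr4, the LPS receptor, at 76.0, 81.2 and 43.5 CPM with buffer and 83.6, 91.4 and 82.4 CPM with H2O. Of 16 tested cytokine genes 1 was called higher (10.4% of all genes) and 1 lower (2.27%) without H2O replicate 3. In the same comparison 1 of 16 chemokine genes was called lower (2.27% of all genes). Of the 18 tested MHC class I and 10 class II genes 0 were called there (12.7% of all genes in either direction).

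Interferon-stimulated and complement genes leaned lower with buffer by their medians, with no call, as for all genes, with all 6 libraries. Of 46 tested interferon-stimulated genes 10 had an unadjusted p under 0.05, all lower with buffer (6.41% of all genes), 8 lay below in every library (5.62% of all genes), and the median log2 change was -0.47. Parp14, an ADP-ribosyltransferase, stood at 175, 142 and 169 CPM with buffer and 264, 273 and 201 CPM with H2O, and Eif2ak2, the RNA-sensing kinase PKR, at 63.4, 57.9 and 62.5 CPM with buffer and 82.6, 81.3 and 91.1 CPM with H2O. These 2 genes were the only members called without H2O replicate 3, with adjusted p of 0.0165 for Parp14 and 0.0349 for Eif2ak2. Rsad2, the antiviral enzyme viperin, stood at 1.92, 3.47 and 2.43 CPM with buffer and 2.5, 5.06 and 5.90 CPM with H2O (adjusted p 0.345). Buffer replicate 3 was the highest of its set for Isg15, a ubiquitin-like protein, at 1.62, 2.28 and 10.9 CPM with buffer beside 2.09, 4.04 and 11.2 CPM with H2O. Of 18 tested complement genes 5 had an unadjusted p under 0.05, all lower with buffer (6.41% of all genes). Without H2O replicate 3, 5 were called lower (2.27% of all genes). These include C3ar1, the C3a receptor, at 421, 355 and 387 CPM with buffer and 549, 730 and 401 CPM with H2O, and Itgax, a chain of complement receptor 4, at 321, 269 and 175 CPM with buffer and 588, 462 and 161 CPM with H2O. C3 and C1qa, the most abundant members, had adjusted p of 0.55 and 0.707 with all 6 libraries.

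**Figure D5:**
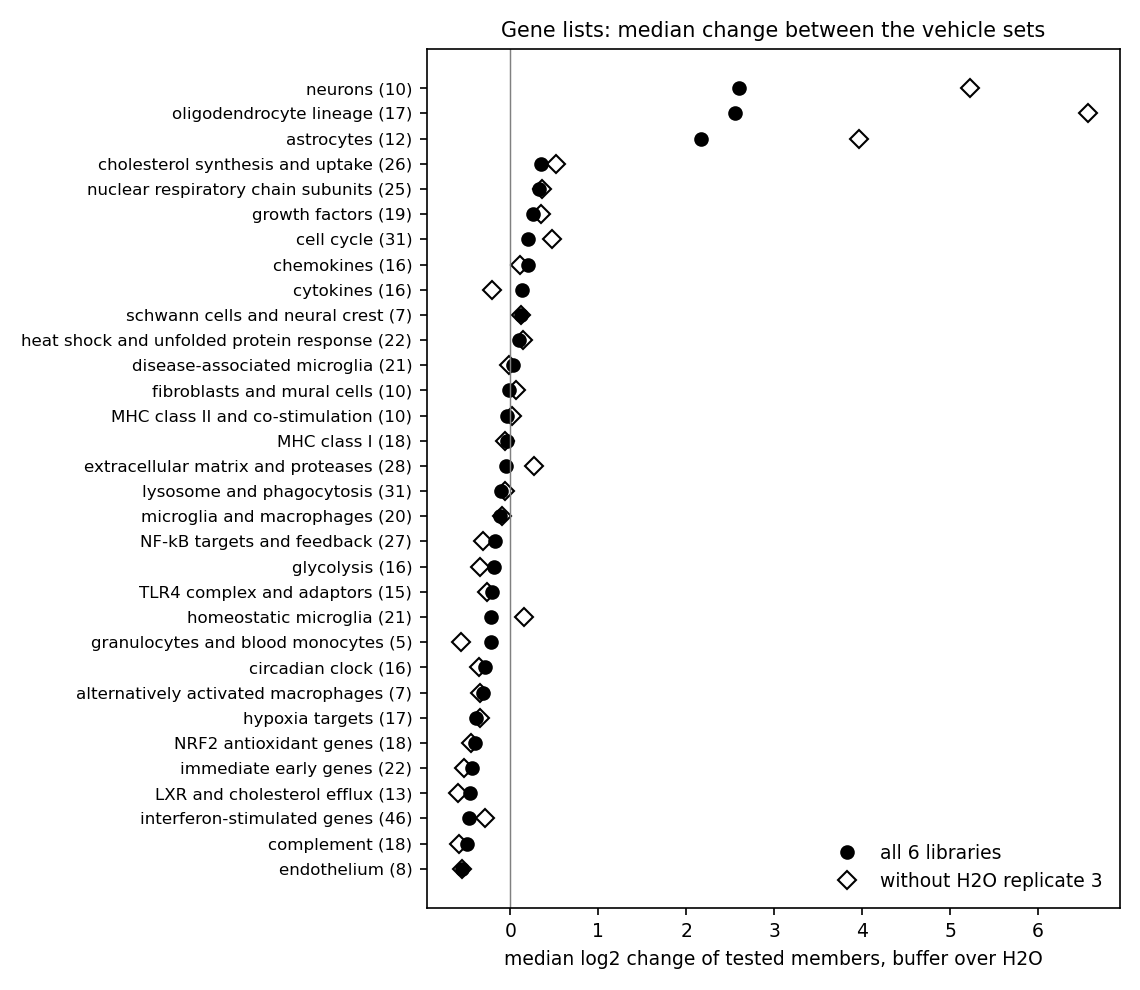
Median log2 change, buffer over H2O, of each gene list with at least 5 tested members, filled symbols with all 6 libraries and open diamonds without H2O replicate 3, with the number of tested genes in brackets. Oligodendrocyte (2.56), neuronal (2.60) and astrocyte (2.17) lists stand far to the right of the other lists and move further right without H2O replicate 3.

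The medians of the cholesterol synthesis and cholesterol efflux lists had opposite signs. Of 26 tested synthesis genes 5 had an unadjusted p under 0.05 (8.67% of all genes) and 6 lay above in every library, all higher with buffer, the second count being near the 22.8% of all genes. Their median log2 change was 0.35. Hmgcs1, which makes the precursor used by the pathway, stood at 37.5, 53.3 and 51.9 CPM with buffer and 20.0, 19.4 and 33.3 CPM with H2O. Its adjusted p was 0.276 with all 6 libraries and 0.0147 without H2O replicate 3. Fads2, a fatty acid desaturase, stood at 11.5, 18.0 and 14.5 CPM with buffer and 1.77, 1.45 and 9.01 CPM with H2O. For both genes H2O replicate 3 was the highest H2O library, as it was for Olig1 and Olig2. The part of oligodendrocyte-lineage cells in these values was not tested. Of 13 tested genes of the liver X receptor and efflux list 4 had an unadjusted p under 0.05, all lower with buffer (6.41% of all genes), with a median log2 change of -0.46. Mylip, which targets the LDL receptor for degradation, stood at 84.5, 57.0 and 63.5 CPM with buffer and 167, 150 and 102 CPM with H2O, and Abcg1, a cholesterol exporter, at 397, 254 and 208 CPM with buffer and 738, 631 and 347 CPM with H2O. Both were called lower without H2O replicate 3, with adjusted p of 0.00958 for Mylip and 0.0287 for Abcg1. Apoe, the most abundant gene of the list, stood at 36600, 30400 and 39100 CPM with buffer and 40700, 48200 and 42300 CPM with H2O (adjusted p 0.337).

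Genes of oxidative stress and hypoxia also leaned lower with buffer by their medians, and for part of them H2O replicate 3 lay with its set. Of 18 tested antioxidant genes under NRF2 control 8 had an unadjusted p under 0.05, all lower with buffer (6.41% of all genes), and 3 were called lower without H2O replicate 3 (2.27% of all genes). Hmox1, the haem-degrading enzyme, stood at 467, 521 and 607 CPM with buffer and 1650, 813 and 1800 CPM with H2O, a log2 change of -1.53 ± 0.31 with an adjusted p of 0.25 with all 6 libraries. Gclc, the first enzyme of glutathione synthesis, stood at 168, 209 and 196 CPM with buffer and 319, 259 and 491 CPM with H2O. For both genes every buffer library lay below every H2O library, and H2O replicate 3 was the highest of all. Of 17 tested hypoxia targets 5 had an unadjusted p under 0.05, all lower with buffer (6.41% of all genes), and Plin2, a lipid droplet coat protein, stood at 268, 243 and 191 CPM with buffer and 475, 351 and 296 CPM with H2O. Of 16 tested glycolysis genes 4 were lower (6.41% of all genes) and 1 was higher (8.67%) at that level. Pkm, a pyruvate kinase, stood at 1070, 1010 and 1070 CPM with buffer and 1690, 1130 and 1450 CPM with H2O, while Gapdh overlapped, at 1300, 1320 and 1580 CPM with buffer and 1370, 1080 and 1260 CPM with H2O.

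Nuclear genes of the respiratory chain leaned the other way. Of 25 tested genes 9 had an unadjusted p under 0.05, all higher with buffer (8.67% of all genes), and 19 lay above in every library (22.8% of all genes), with a median log2 change of 0.33. Atp5f1b, the catalytic subunit of ATP synthase, stood at 933, 1020 and 1070 CPM with buffer and 588, 572 and 743 CPM with H2O, a log2 change of 0.55 ± 0.13 with an adjusted p of 0.266. Without H2O replicate 3 it was the single member called, with an adjusted p of 0.0404. The share of counts on 13 mitochondrial genes was 2.49%, 2.84% and 3.55% with buffer and 2.80%, 2.97% and 2.74% with H2O, with overlapping groups. The share on 64 ribosomal protein genes was 3.14%, 3.22% and 4.60% with buffer and 2.23%, 2.82% and 2.58% with H2O, higher in each buffer library than in any H2O library.

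Matrix genes and growth factors differed by gene. Of 28 tested matrix and protease genes 8 were called higher (10.4% of all genes) and 1 lower (2.27%) without H2O replicate 3, and the median log2 change with all 6 libraries was -0.05. Col11a1 stood at 20.4, 26.9 and 11.9 CPM with buffer and 0.177, 0.218 and 2.01 CPM with H2O. Lama4, a laminin chain, stood at 10.1, 15.6 and 9.90 CPM with buffer and 0.328, 0.363 and 9.39 CPM with H2O, so the collagen was low in H2O replicate 3 and the laminin was not. Tnc, tenascin-C, stood at 28.2, 39.1 and 37.4 CPM with buffer and 5.05, 6.42 and 104 CPM with H2O, with H2O replicate 3 highest of all. Spp1, osteopontin, overlapped at 5450, 6960 and 2880 CPM with buffer and 5350, 3910 and 7480 CPM with H2O. Of 19 tested growth factor genes 5 were called higher (10.4% of all genes) and 1 lower (2.27%) without H2O replicate 3. Tgfa, a ligand of the EGF receptor, stood at 32.4, 45.6 and 23.3 CPM with buffer and 1.72, 1.69 and 10.3 CPM with H2O, and Tgfb1, which maintains microglial identity, at 285, 250 and 313 CPM with buffer and 438, 460 and 369 CPM with H2O. Igf1 overlapped, at 1170, 1040 and 291 CPM with buffer and 954, 604 and 932 CPM with H2O, with buffer replicate 3 lowest.

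Proliferation genes overlapped between the sets with all 6 libraries. Mki67, a marker of dividing cells, stood at 162, 145 and 139 CPM with buffer and 184, 88.7 and 182 CPM with H2O (adjusted p 0.785). Of 31 tested cell cycle genes 0 had an unadjusted p under 0.05 with all 6 libraries and 4 were called higher without H2O replicate 3, near the 10.4% of all genes. Among them, Foxm1, a transcription factor of mitotic genes, stood at 13.2, 12.8 and 12.3 CPM with buffer and 5.90, 6.10 and 15.2 CPM with H2O. Of 22 tested immediate early genes 8 were lower (6.41% of all genes) and 1 was higher (8.67%) with buffer at an unadjusted p under 0.05. Fos stood at 6.83, 7.53 and 5.46 CPM with buffer and 16.3, 11 and 6.97 CPM with H2O, whereas Myc was the single member higher, at 47.4, 62.9 and 64.2 CPM with buffer and 23.2, 27.7 and 37.6 CPM with H2O. Without H2O replicate 3, 1 of 21 tested genes of the disease-associated list was called, Itgax, lower (2.27% of all genes). Of the lysosome and phagocytosis list 2 of 31 were called, both lower (2.27% of all genes). Of the alternatively activated list 0 of 7 were called (12.7% of all genes in either direction). Of 22 heat shock and unfolded protein response genes 1 was called higher without H2O replicate 3 (10.4% of all genes). This was Hspd1, a mitochondrial chaperone, at 270, 309 and 283 CPM with buffer and 166, 137 and 212 CPM with H2O. Of 16 circadian genes 1 was called higher without H2O replicate 3 (10.4% of all genes). This was Hlf, at 0.339, 0.560 and 0.741 CPM with buffer and 0.0252, 0 and 0.398 CPM with H2O.

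A set of genes kept all 3 H2O libraries together. Those named here were picked after their values were seen, from genes with a small p with all 6 libraries. Plekhg3, a regulator of small GTPases, stood at 13.4, 15.3 and 12.1 CPM with buffer and 32.7, 28.5 and 27 CPM with H2O. Ucp2, a mitochondrial carrier, stood at 350, 338 and 458 CPM with buffer and 912, 883 and 714 CPM with H2O, and Ptafr, the platelet-activating factor receptor, at 205, 165 and 204 CPM with buffer and 437, 410 and 330 CPM with H2O. Lipa, the lysosomal acid lipase, stood at 607, 537 and 539 CPM with buffer and 1010, 884 and 868 CPM with H2O. The log2 changes were -1.24 ± 0.15 for Plekhg3, -1.26 ± 0.19 for Ucp2, -1.16 ± 0.18 for Ptafr and -0.84 ± 0.14 for Lipa, with adjusted p of 0.229 to 0.236 with all 6 libraries. In the fit with all 4 microglial groups, Ucp2 and Ptafr were called lower, each with an adjusted p of 0.0467. In the other direction Ch25h, cholesterol 25-hydroxylase, stood at 112, 133 and 129 CPM with buffer and 50.0, 64.7 and 65.3 CPM with H2O. Cav1, the caveolar coat protein, stood at 27.8, 41.6 and 35.8 CPM with buffer and 5.35, 5.76 and 11.1 CPM with H2O, and Sh3bp4, an endocytic adaptor, at 50.0, 71.6 and 45.0 CPM with buffer and 11.8, 16.1 and 21.0 CPM with H2O. None of these groups overlapped, and the values of H2O replicate 3 lay with the H2O libraries in each case, which picking by a small p favours.

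Without H2O replicate 3 the 10 largest called rises were those of Cadm2, Gpr17, Mmd2, Dpysl4, Igsf21, Tmem255a, Ina, Plxnb3, Stk32a and Gpr37l1, each at 0.194 CPM or less in H2O replicates 1 and 2. Plxnb3, a semaphorin receptor of oligodendrocytes, stood at 19.9, 32.3 and 18.9 CPM with buffer and 0, 0.169 and 2.69 CPM with H2O, with an adjusted p of 0.00187. Among the largest falls were macrophage and metabolic genes. Mmp9 had a log2 change of -3.61 ± 0.50 with an adjusted p of 0.0072. Fabp4, a fatty acid carrier of macrophages and adipocytes, stood at 103, 69.4 and 49.6 CPM with buffer and 471, 296 and 63.0 CPM with H2O, a log2 change of -2.53 ± 0.35 with an adjusted p of 0.0074. Txnip, an inhibitor of thioredoxin, stood at 174, 118 and 151 CPM with buffer and 465, 540 and 189 CPM with H2O, a log2 change of -1.92 ± 0.21 with an adjusted p of 0.00285. For Mmp9, Fabp4 and Txnip, H2O replicate 3 lay nearer to the buffer libraries than to its companions, and none of the 3 was called with all 6 libraries.

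Buffer replicate 3 departed from buffer replicates 1 and 2 mostly downward, with 1140 genes at least 2-fold lower and 314 at least 2-fold higher than the mean of those 2. Ccl9, a chemokine of the macrophage lineage, stood at 147, 172 and 4.95 CPM with buffer and 18.2, 21.4 and 110 CPM with H2O. Soga1 stood at 99.4, 108 and 7.11 CPM with buffer and 94.1, 91.5 and 52.9 CPM with H2O, and Lmbrd2 at 50.1, 53.1 and 4.99 CPM with buffer and 49.4, 48.4 and 36.5 CPM with H2O. Both were far lower in buffer replicate 3 than in any other vehicle library. In the other direction Id3, an inhibitor of helix-loop-helix transcription factors, stood at 12.9, 49.1 and 149 CPM with buffer and 12.2, 27 and 141 CPM with H2O, so replicate 3 was the highest in both sets. Gfap was also highest in replicate 3 of both sets. The residual lineages were present in all 3 buffer libraries, with Olig1 highest and Gpr17 lowest in replicate 3.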

How the data were processed

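Poly(A)-captured RNA of 6 microglial vehicle libraries (3 with buffer, 3 with H2O) was analysed from 1 table of raw counts per gene and library. Per the file headers these are total counts per gene symbol, as deposited, whole numbers with no scaling. Per the submitters' processing notes, the tools were HISAT2 and StringTie 1.3.3b and the build mRatBN7.2, listed with no role or setting. The labels name no counter, annotation release or strand setting, so overlapping and near-identical genes may share reads. Of 23139 genes, 16648 matched a RefSeq symbol, 1485 matched a synonym and 5981 had no count in the 6 libraries.

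Counts were filtered with filterByExpr, scaled by TMM and tested with the edgeR quasi-likelihood test (edgeR 4.0.16, robust, R 4.3.3), buffer over H2O, with Benjamini-Hochberg adjustment over all tested genes and calls at an adjusted p of 0.05. Levels are CPM of the plain library total, and log2 CPM used a prior count of 2. Summed marker levels were compared with an exact permutation test over libraries. The test was checked on simulated data. Alternatives were DESeq2 1.42.0, RLE factors, no low-count filter, a joint fit of 4 microglial groups, a replicate block, each library left out, and, chosen after seeing the data, voom with sample quality weights (limma 3.58.1) and 2 marker sums without named members. Figures were drawn with matplotlib 3.10.9.

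The libraries and the 34 gene lists (10 of cell type markers, 24 of functions) were chosen with earlier results of these data known. Named genes were the 10 largest called rises and falls with groups apart and at least 10 CPM, a set panel, per list up to 4 called members or else the 2 most abundant, and the 10 genes by each sign in which H2O replicate 3 differed most from replicates 1 and 2. With all 6 libraries no gene met the first of these. The same rules were applied to the comparison without H2O replicate 3, and any other gene named was chosen after its values were seen. Some genes that these rules name are not reported here. The HERV-W ENV and LPS microglia and the astrocyte vehicle libraries served only as side readings.

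A count of 0 was read as up to 3 counts, and such limits cover counting error only.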

Additional observations from a re-analysis of the deposited data

How the results depend on the processing

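The count of called genes, 0 with all 6 libraries, stayed at 0 with RLE factors and with the replicate block. DESeq2 called 682 genes (359 higher, 323 lower with buffer), of which 404 were also called without H2O replicate 3. Without the low-count filter 1 gene was called, higher, and the joint fit of 4 groups called 28 (15 higher, 13 lower). The voom fit with sample quality weights, chosen after seeing the data, called 2689 (1808 higher, 881 lower) and gave its lowest weights to buffer replicate 3 (0.222) and H2O replicate 3 (0.344). With each library left out in turn the count ran from 0 to 1650 (0 to 1355 higher, 0 to 295 lower), the upper end without H2O replicate 3. The cause of these differences was not tested.

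Deviations of same-numbered libraries correlated at 0.38, -0.16 and 0.17. With 3 libraries per set these values cannot settle whether replicate numbers pair the sets, so the replicate block is reported only here. Buffer replicate 1 correlated best with H2O replicate 1, and buffer replicates 2 and 3 with H2O replicate 3.

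Of 173 named genes 28 changed sign under some alternative. No gene was called with all 6 libraries, so this says nothing of called genes, and Dlk1 and Tnc are among those called without H2O replicate 3. As log2 changes, these were 2.75 for Dlk1, -0.02 for Col1a2 and 1.21 for Tnc with the replicate block. They were -0.04 for Col1a2, 0 for Ctss, -0.01 for Gapdh and -0.01 for Hspa8 in the joint fit, and 0 for Col1a2 without the filter. In the voom fit they were 0.24 for Igf1, -0.13 for Cxcl10, 3.71 for Dlk1, -0.06 for Gapdh, 0.15 for Spp1 and 1.9 for Tnc. With 1 library left out the changes ran as follows, lowest to highest: B2m -0.18 to 0, C1qa -0.01 to 0.23, Calr -0.16 to 0.09, Ccl2 -0.79 to 0.15, Cd79b -1.36 to 0.54, Col1a2 -0.31 to 0.33, Cst3 -0.46 to 0.23, Ctsb -0.09 to 0.21, Ctss -0.05 to 0.25, Cxcl10 -0.14 to 0.49, Cxcl16 -0.02 to 0.34, Dlk1 -1.19 to 5.91, Gapdh -0.05 to 0.16, Gpnmb -0.4 to 0, Igf1 -0.47 to 0.28, Lpar3 -2.19 to 0.07, Mki67 -0.44 to 0.05, Mrc1 -0.59 to 0.02, Ndrg1 -1.07 to 0.12, Nfkbiz -0.44 to 0.3, Npc2 -0.15 to 0.09, Pcna -0.07 to 0.47, Pecam1 -1.2 to 0.17, RT1-DMa -0.13 to 0.78, Spp1 -0.55 to 0.03, Tnc -0.74 to 2.45 and Trem2 -0.09 to 0.28. Without H2O replicate 3 the H2O arm has 2 libraries. Genes with few counts in H2O replicates 1 and 2 are mostly given as levels, since their fold depends on the prior count. Where a fold, a median fold or a ranking by fold is given for such genes, its size carries this limit.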
